A study of Homo sapiens with 6 samples.

Results

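RAB proteins are the largest branch of the RAS superfamily of small GTPases, and the genes described here are those of the deposited table whose symbol is RAB or RABL followed by a number and at most 1 letter. The rule found 52 genes among 15917 listed, and it uses the symbol alone, not a measured value. Total RNA was sequenced from MDA-MB-231 cells, an established human triple-negative breast cancer line, in 6 libraries from 3 groups. In the group shCTRL, with genotype WT, 2 libraries came from cells with a control hairpin. In the groups shRBMS3-B3 (RBMS3 KD1) and shRBMS3-C3 (RBMS3 KD2), 2 libraries each came from cells with a hairpin against *RBMS3*, an RNA binding protein that the study examined as a regulator of mRNA stability. By the study's methods, the hairpins were brought in by lentivirus into luciferase-labeled cells that were then selected with puromycin, so all groups share that treatment and 1 parental line.

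The table holds 1 value per gene for the level of its RNA, the authors' mean of normalized counts over libraries. Its other values are the authors' own comparison of knockdown with control cells and were not used here. Knockdown and control cells are therefore not compared in what follows, the targeted gene could not be checked in single libraries, and every value is a level over pooled libraries with no error. Whether all 6 libraries entered the mean is not stated in the sources used here. The supplement describes the knockdown comparison with 2 replicates of each condition, which would be 4 libraries, without naming the hairpin. The depth of each library is unknown. Levels of different genes were compared after division by the length of 1 representative transcript of each gene, and "level" below means the authors' mean normalized count per kilobase of transcript. Since the spread between libraries is unknown, genes that are neighbors in the order of levels cannot be told apart. The median level of the 15829 listed genes with a GENCODE model was 137 per kilobase, and the highest 10% of genes began at 1035 per kilobase.

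The label of the cells was set beside its markers. Of 10 markers of MDA-MB-231 cells, 9 were listed and all 9 lay above the median, from *VIM* at 32189 to *ZEB1* at 174 per kilobase, and *SPARC* had no row. Of 11 luminal or HER2 markers, 7 were listed. *CDH1* was at 6.57 per kilobase, *ESR1*, *PGR*, *FOXA1* and *TFF1* had no row, and the keratins *KRT8*, *KRT18* and *KRT19* were high at 9979, 8980 and 4925. *ERBB2* stood at 342 per kilobase. *COL1A1* and *PECAM1*, markers of other cells, were at 32.5 and 10.1, and *PTPRC* had no row. *RBMS3* itself had a mean normalized count of 272 and a level of 32.1 per kilobase over the pooled libraries, between *RABL2A* and *RAB40B*. The pool includes cells with a hairpin against *RBMS3*, so this value is not its level in control cells.

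RAB proteins switch between a GDP-bound form in the cytosol and a GTP-bound form on a membrane, where they recruit effectors that move, tether or fuse vesicles. Exchange factors (GEFs) switch them on and GTPase-activating proteins (GAPs) switch them off. In most of them, though not in all RAB-like proteins, a lipid group at the C terminus holds the protein in the membrane. Each compartment of the secretory and endocytic routes carries its own RAB proteins, and in breast cancer cells several members are known for their part in integrin recycling, secretion of vesicles and invasion. Many RAB numbers exist as paralogs marked by a letter, whose proteins are close in sequence.

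How far paralogs can be told apart by reads bears on the levels of paralogs below, and the coding sequences around the GTP-binding P-loop show the range. The stretches are 75 bases long, the read length that the study's methods give, and bases that differ between the genes shown are in capitals. In the RAB5 set the stretch lies within exon 2 of the representative transcript in each gene, at chr3:19950953-19951027 on the plus strand for *RAB5A*, chr12:55987015-55987089 on the plus strand for *RAB5B* and chr17:42130371-42130445 on the minus strand for *RAB5C*, in GRCh38 with GENCODE release 44, and 24 of the 75 positions differ among the genes.
RAB5A: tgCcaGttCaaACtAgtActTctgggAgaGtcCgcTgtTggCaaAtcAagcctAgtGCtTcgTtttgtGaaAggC
RAB5B: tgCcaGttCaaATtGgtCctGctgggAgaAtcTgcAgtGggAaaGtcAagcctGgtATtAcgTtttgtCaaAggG
RAB5C: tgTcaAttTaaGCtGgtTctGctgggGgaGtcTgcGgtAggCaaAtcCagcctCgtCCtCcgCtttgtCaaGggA

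In the RAB1 pair, the corresponding stretch crosses the junction of exons 2 and 3 in both genes and differs at 17 positions. With the intron between, it spans chr2:65098061-65104802 on the minus strand for *RAB1A* and chr11:66271801-66272162 on the plus strand for *RAB1B*.
RAB1A: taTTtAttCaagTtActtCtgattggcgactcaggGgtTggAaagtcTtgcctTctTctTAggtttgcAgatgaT
RAB1B: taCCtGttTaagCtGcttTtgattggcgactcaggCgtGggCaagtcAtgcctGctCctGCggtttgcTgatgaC

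In the RABL2 pair the stretch is the same in both genes, so a read from it carries no mark of its gene. It also crosses the junction of exons 2 and 3, over chr2:113628664-113632939 on the plus strand for *RABL2A* and chr22:50777957-50782237 on the minus strand for *RABL2B*.
RABL2A and RABL2B: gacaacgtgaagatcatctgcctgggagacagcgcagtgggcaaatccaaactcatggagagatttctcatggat

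Over the whole coding sequence, 15 pairs of paralogs with the same RAB number were aligned. Identity of coding bases ranged from 68.1% for *RAB27A* and *RAB27B* to 99.3% for *RABL2A* and *RABL2B*. In 1 of the 15 pairs, the RABL2 pair, a coding window of 75 bases occurred in both genes. It held 422 such windows.

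RAB levels spanned 314-fold, from 2394 per kilobase for *RAB1B* to 7.62 per kilobase for *RAB3B*. The low end depends on division by length, since the transcript of *RAB3B* has 12780 bases. Without division *RAB3B* ranked 48 with a mean normalized count of 97.4, and *RAB42* was lowest at 32.5 against 4550 for *RAB1B*. The median member stood at 120 per kilobase, which is 0.879 of the median of all listed genes. Of the 52 genes, 25 (48.1%, exact Clopper-Pearson 95% interval 34.0% to 62.4%, which treats genes as independent and covers counting of genes only) lay above that median. With the coding length in place of the transcript length, the share above the median was 65.4%, and without division by length it was 55.8%. All 52 members are protein coding, while the listed genes also include other types. Beside the 12408 protein-coding genes only, 23 of 52 members (44.2%) lay above the median. Members lay along the whole range. There were 8 members in the highest 10% of all listed genes and 2 in the lowest 10%, by level per kilobase. Without division by length, 5 members were in the highest 10%, and with the coding length 11 were.

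**Figure D1:**
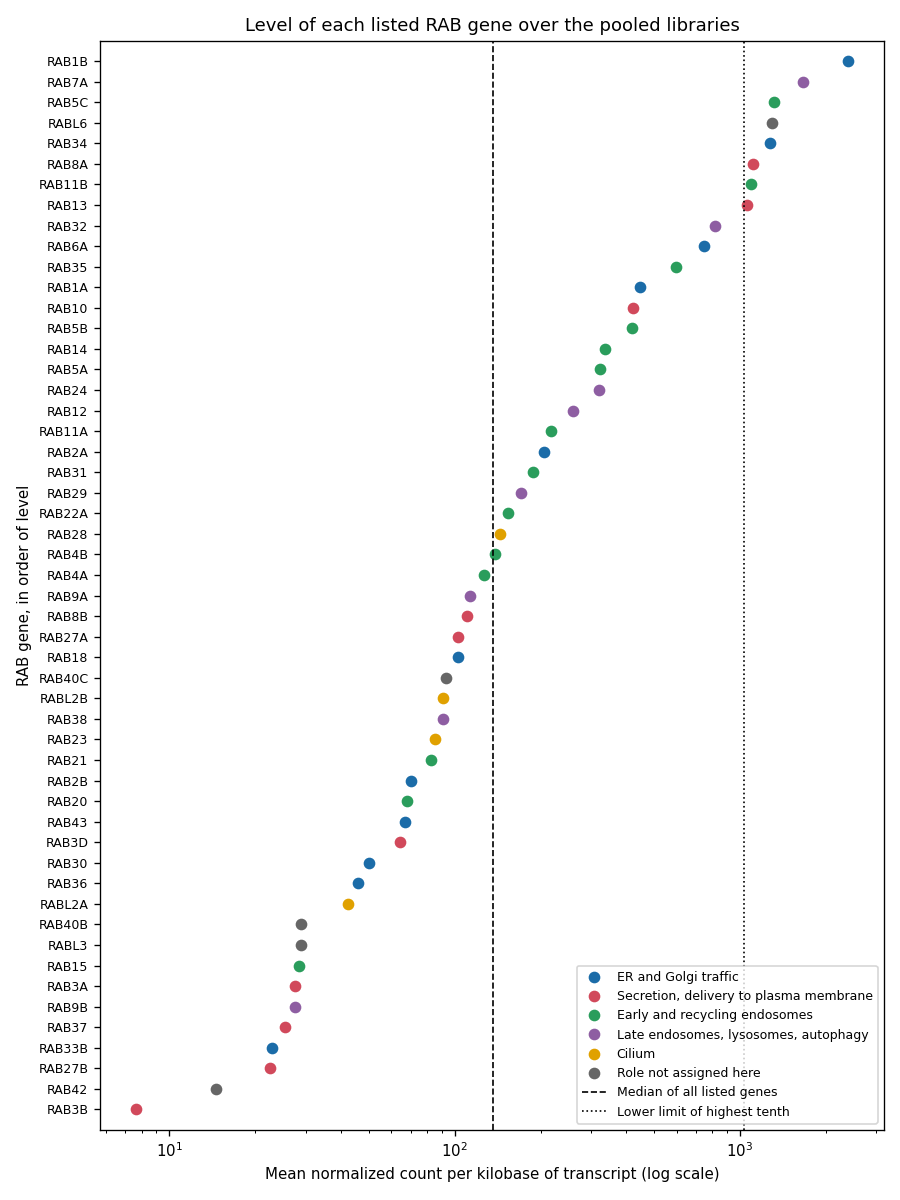
Level of each of the 52 RAB genes as the authors' mean normalized count per kilobase of transcript, on a log scale, with 1 point per gene colored by role; there are no error bars because single libraries are not given. The dashed line marks the median of all listed genes (137) and the dotted line the lower limit of the highest 10% (1035), which 8 members pass. In the highest 10% were 5 members without division by length and 11 with the coding length.

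**Figure D2:**
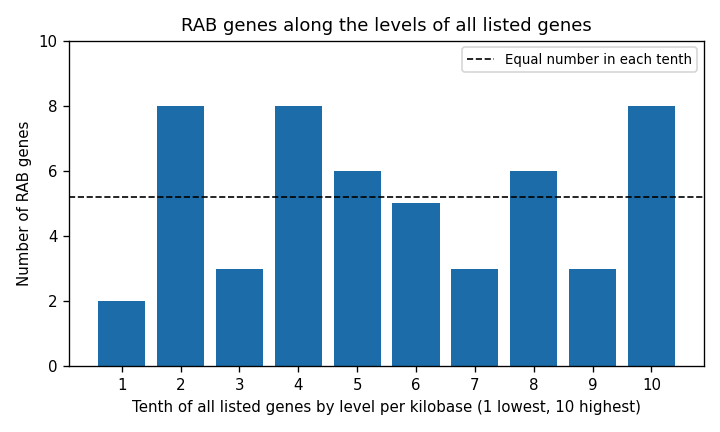
Number of RAB genes in each of 10 equal bins of all listed genes, ordered by level per kilobase from 1 (lowest) to 10 (highest). The highest bin holds 8 members (5 without division by length, 11 with the coding length) and the lowest 2. The dashed line marks an equal number in each.

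A few genes made up most of the family's RNA. When the levels per kilobase of all members were summed, *RAB1B* alone held 12.8% of the sum, the highest 7 members held 54.1%, and the highest 12 held 73.7%. The lowest 27 members together added less than the level of *RAB1B*, since the highest 25 held 91.2% of the sum. Without division by length, the 52 genes took up 0.215% of the summed mean normalized counts of the table.

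Among RAB genes of traffic between the endoplasmic reticulum (ER) and the Golgi, the early part of the secretory route, 11 of the 14 in the list were present. Their median level was 103 per kilobase, 5 of them lay above the median of all listed genes, and they held 28.9% of the family's summed level. *RAB1B* (ENSG00000174903, on chromosome 11, plus strand, 66268590 to 66277492), which drives transport from the ER to the Golgi, had a mean normalized count of 4550, the highest of the family also without division by length. Its paralog *RAB1A* (chromosome 2, minus strand, 65070696 to 65130331), with the same role, had a mean normalized count of 1091 and a level of 446 per kilobase.

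*RAB34*, known from the Golgi and from the formation of cilia, had a level of 1275 per kilobase. *RAB6A*, the regulator of retrograde transport at the Golgi, had a level of 749 per kilobase from a mean normalized count of 2491. These 2 genes and *RAB1B* were the members of the group among the 10 highest of the family. *RAB2A*, which acts between the ER and the Golgi, had a level of 205 per kilobase, and its paralog *RAB2B* one of 70.4.

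All of the remaining genes of this group lay below the median of all listed genes. *RAB18*, found on the ER and on lipid droplets, had a level of 103 per kilobase. *RAB43* stood at 67.2, *RAB30* at 50.02 and *RAB36* at 45.7 per kilobase, all of them Golgi proteins. *RAB33B*, a Golgi RAB that binds the autophagy protein ATG16L1, was the lowest of the group at 23.0 per kilobase.

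In the group of secretion and delivery to the plasma membrane, 10 of 12 genes were present, with a median level of 83.6 per kilobase, and 3 lay above the median of all listed genes. *RAB8A*, which carries vesicles from the Golgi and recycling endosomes to the cell surface, had a level of 1113 per kilobase from a mean normalized count of 2858. *RAB13*, a RAB of cell junctions and migrating cells, had a level of 1059 per kilobase, and *RAB10*, known for the delivery of glucose transporters to the surface, one of 422. The other 7 genes lay below the median.

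*RAB3D* had a level of 64.2 per kilobase, *RAB3A* one of 27.7 and *RAB3B* one of 7.62, all of them RABs of secretory granules or synaptic vesicles. *RAB27A*, which docks exosome-bearing endosomes at the plasma membrane, had a level of 103 per kilobase and its paralog *RAB27B* one of 22.6. *RAB37*, another RAB of secretory granules, stood at 25.5 per kilobase. *RAB8B*, the paralog of *RAB8A*, had a level of 111 per kilobase.

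Early and recycling endosomes had the most members, with 14 of 16 genes present. Their median level was 203 per kilobase, 10 of the 14 lay above the median of all listed genes, and they held 27.1% of the family's sum. *RAB5C* (chromosome 17, minus strand, 42124978 to 42155044) had a level of 1315 per kilobase. *RAB5B* stood at 417 and *RAB5A* at 324 per kilobase, so that all paralogs of this master regulator of early endosome fusion lay above the median. *RAB11B*, a RAB of the slow recycling route, had a level of 1091 per kilobase, and *RAB11A*, with the same role, one of 218.

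*RAB35*, a RAB of fast recycling and actin organization, had a level of 598 per kilobase. *RAB14*, which links the Golgi with endosomes, had one of 337 per kilobase. *RAB31* stood at 188 and *RAB22A* at 154 per kilobase, 2 relatives of RAB5. *RAB4B* and *RAB4A*, RABs of rapid recycling, had levels of 139 and 127 per kilobase, on either side of the median of all listed genes.

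Below them stood *RAB21*, known for moving integrins through endosomes. Its mean normalized count of 1283 ranked 14 in the family, yet its transcript of 15558 bases gave it a level of 82.4 per kilobase and rank 35. *RAB20*, a RAB of endosomes and phagosomes, had a level of 67.9 per kilobase. *RAB15*, a RAB of recycling endosomes, was the lowest of this group at 28.5.

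For late endosomes, lysosomes, related organelles and autophagy, 8 of 11 genes were present, 5 of them above the median of all listed genes, with a median level of 216 per kilobase. *RAB7A* (ENSG00000075785, chromosome 3, plus strand, 128693669 to 128825942), which directs late endosomes to fuse with lysosomes, was second in the family with a level of 1661 per kilobase from a mean normalized count of 3629. *RAB32*, a RAB of lysosome-related organelles and mitochondria, had a level of 819 per kilobase, while its relative *RAB38*, known from melanosomes, had one of 90.7. *RAB24*, linked to autophagy, stood at 321 per kilobase, and *RAB12*, which sends the transferrin receptor to lysosomes, at 261.

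*RAB29*, a RAB that recruits the kinase LRRK2 to membranes, had a level of 171 per kilobase. *RAB9A*, which returns cargo from late endosomes to the Golgi, had a level of 113 per kilobase and its paralog *RAB9B* one of 27.5. *RAB9B* was the lowest of the group.

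The cilium group was present with all 4 genes and held 1.93% of the family's sum. Each gene was counted in 1 group only. *RAB34*, also known from the formation of cilia, was counted with the ER and Golgi group. *RAB28* had a level of 144 per kilobase, just above the median of all listed genes. *RAB23*, a negative regulator of Hedgehog signaling, stood at 85.2 per kilobase. *RABL2B* had a level of 91.0 and *RABL2A* one of 42.3 per kilobase, both RAB-like proteins of intraflagellar transport.

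No role was assigned to 5 genes, and their median level was 29.0 per kilobase. *RABL6* (ENSG00000196642, chromosome 9, plus strand, 136807943 to 136841187) stood apart from the others in this group with a level of 1296 per kilobase, rank 4 in the family, and a mean normalized count of 4023, which ranked 2. It is a long member, with 15 exons and 2190 coding bases, against 606 coding bases for *RAB1B*. *RAB40C* had a level of 93.2 and *RAB40B* one of 29.0 per kilobase, 2 RABs with a SOCS box that joins them to a ubiquitin ligase. *RABL3* stood at 29.0 per kilobase and *RAB42* at 14.5, second to last in the family with a mean normalized count of 32.5.

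Of the 67 protein-coding genes of GENCODE whose names follow the same rule, the other 15 were not among the rows analysed here. They are *RAB3C*, *RAB6B*, *RAB6C*, *RAB6D*, *RAB7B*, *RAB17*, *RAB19*, *RAB25*, *RAB26*, *RAB33A*, *RAB39A*, *RAB39B*, *RAB40A*, *RAB41* and *RAB44*. *RAB17* and *RAB25* are known from polarized epithelia, and *RAB3C*, *RAB6B* and *RAB39B* from neurons. The lowest mean normalized count in the table was 26.7, so the table gives no value near 0 for any gene, and a gene without a row has no level here.

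The 52 genes covered 39 RAB numbers, and 11 numbers had at least 2 listed members, 24 genes in all. In 10 of the 11 the highest and lowest member differed at least 2-fold in level per kilobase. By level per kilobase, the widest gap was 10.1-fold between *RAB8A* and *RAB8B*, followed by 8.43-fold between *RAB3D* and *RAB3B*, 5.37-fold between *RAB1B* and *RAB1A* and 5.01-fold between *RAB11B* and *RAB11A*. The narrowest was 1.09-fold between *RAB4B* and *RAB4A*. This order depends on division by length. Without it the widest gap was 6.58-fold between *RAB3D* and *RAB3A*, and that between *RAB8A* and *RAB8B* was 5.38-fold. The mean normalized count of *RAB3D* was 2.80 times that of *RAB3B*, that of *RAB11B* 1.63 times that of *RAB11A*, and that of *RAB4B* 0.424 of that of *RAB4A*.

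**Figure D3:**
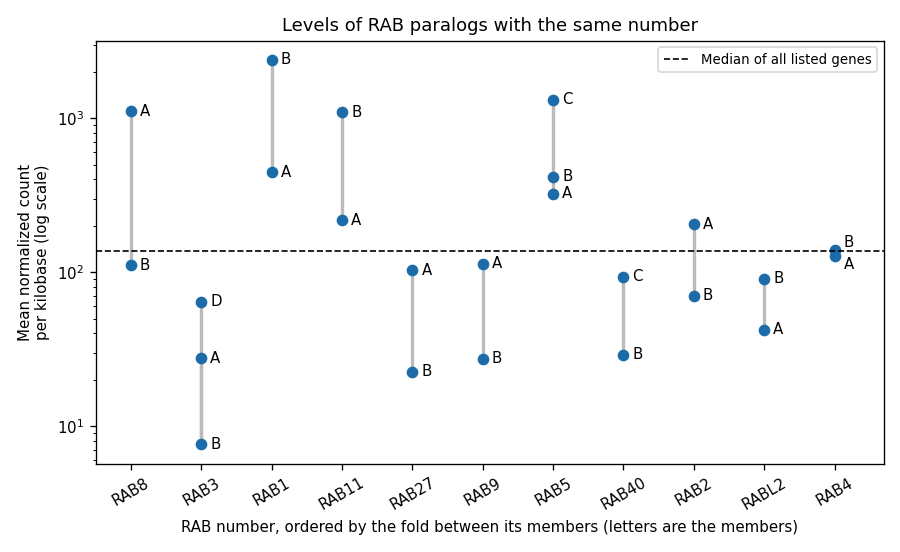
Levels of paralogs with the same RAB number as the authors' mean normalized count per kilobase, on a log scale, with 1 point per gene, its letter beside it and a gray line joining the members; the dashed line is the median of all listed genes (137). On this scale RAB8 has the widest gap (10.1-fold) and RAB4 the narrowest (1.09-fold); without division by length the widest is that of RAB3 (6.58-fold) and the narrowest that of RAB11 (1.63-fold).

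To see which of these levels could hold reads of another gene, each representative transcript was cut into all windows of 75 bases, and each window was searched in the transcripts of every other GENCODE gene on the same strand. In 32 of the 52 members no window occurred elsewhere. In 6 members under 1% of windows did, in 8 members 1% to 50%, and in 6 members at least 50%. Whether reads were in fact shared was not tested.

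The 6 genes with at least 50% of their windows in another gene were *RAB4B* (100%), *RAB43* (90.7%), *RAB24* (56.4%), *RAB13* (55.9%), *RABL2A* (51.9%) and *RABL2B* (51.7%). Every window of *RAB4B* also lay in a read-through transcript, MIA-RAB4B or RAB4B-EGLN2. *RAB43* shared 88.2% of its windows with the read-through ISY1-RAB43, which was listed with a mean normalized count of 30.04 against 301 for *RAB43* itself. *RAB24* shared its 56.4% with *MXD3*, listed at 351 against 510 for *RAB24*. *RAB13* shared 55.9% with the protein-coding model ENSG00000285641 and 24.6% with a processed pseudogene. The split of reads between *RABL2A* (mean normalized count 90.6) and *RABL2B* (195) is therefore uncertain, as is the level of *RAB4B*, and with it the narrow gap in the RAB4 pair.

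Among the 10 highest members, *RAB13*, described above, shared the most at 55.9%. *RAB5C* shared 41.4% of its windows with the model ENSG00000267261, listed at 326 against 2156 for *RAB5C*. *RABL6* shared 19.4%, most of them with 2 noncoding genes listed at 52.2 and 28.2 against 4023. *RAB6A* shared 10.2% with *RAB6C* and *RAB6D*, and *RAB8A* 5.33% with *HSH2D*. *RAB1B* shared 1.48%, with the pseudogene RAB1C, and *RAB7A*, *RAB34*, *RAB11B* and *RAB32* shared none.

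**Figure D4:**
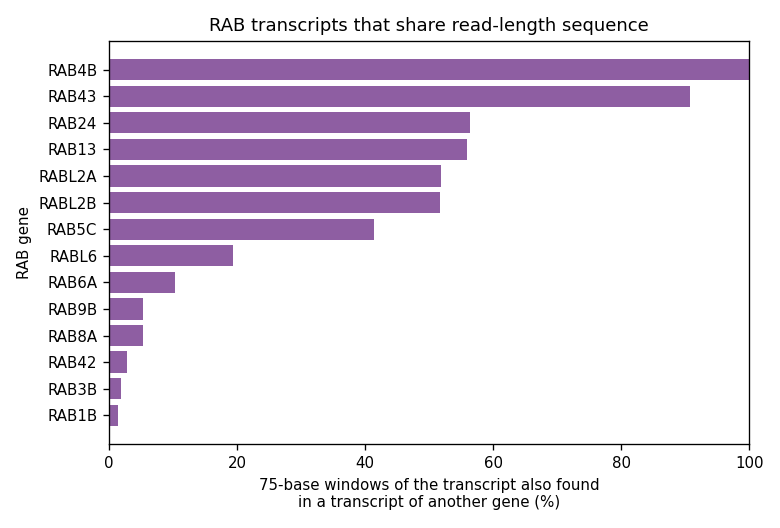
Percent of 75-base windows of each RAB transcript that also occur in a transcript of another GENCODE gene, for the 14 members with at least 1%. *RAB4B* (100%) and *RAB43* (90.7%) stand highest, and 6 members reach at least 50%.

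The element that the study linked to RBMS3 is an AUA-rich stretch of 7 bases in the 3′UTR, and its presence in RAB transcripts was described from sequence alone. By the pattern in the study's methods, a match is A, G or T, then A or T, then ATA, then A or T, then A, searched on the transcript strand only, with overlapping matches counted. In the representative transcripts 41 of 52 RAB genes (78.8%, exact Clopper-Pearson 95% interval 65.3% to 88.9% over genes) had at least 1 match, against 84.8% of the 12351 listed genes with a 3′UTR. The RAB 3′UTRs were longer, with a median of 2161 bases against 1378, and had 58.3% against 57.9% A+U. Their matches came to 3.07 per kilobase of 3′UTR, against 2.79 for all listed genes. These shares describe sequence, and no binding or change of RNA was tested.

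Numbers of matches went with length. Across the 52 members, Spearman's rho between 3′UTR length and matches was 0.771, as a description across genes that are not independent replicates. *RAB21*, with a 3′UTR of 14613 bases, had 74 matches, *RAB3B* had 47 and *RAB30* 34. *RABL3* had 27, *RAB22A* and *RAB27B* 20 each. At the other end, 11 members had none, namely *RABL6*, *RAB34*, *RAB8A*, *RAB13*, *RAB4B*, *RABL2B*, *RAB20*, *RAB3D*, *RABL2A*, *RAB3A* and *RAB37*, and their 3′UTRs ran from 359 bases in *RAB34* to 3330 bases in *RAB3D*.

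**Figure D5:**
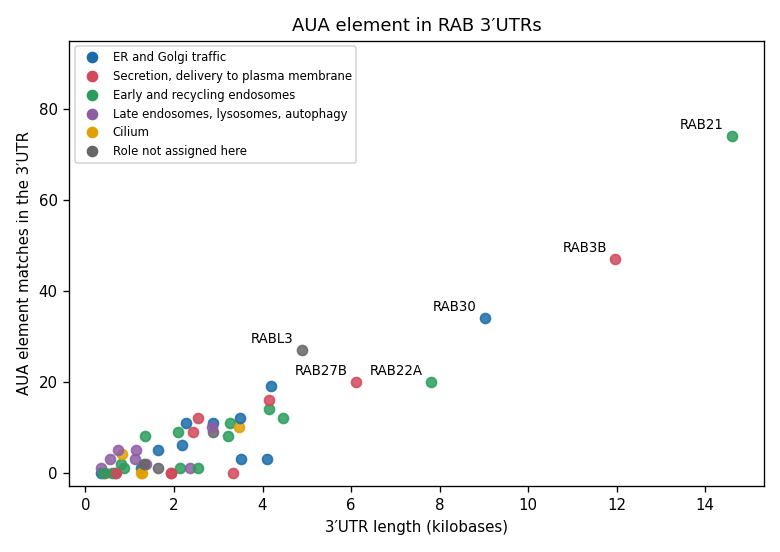
Matches to the AUA element against the length of the 3′UTR in kilobases for the 52 RAB genes, 1 point per gene colored by role. *RAB21* has the longest 3′UTR and 74 matches, *RAB3B* 47 and *RAB30* 34, and 11 members lie at 0.

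The first match of each of the 5 highest members that have one is shown in 30 bases of 3′UTR, with the match in capitals, because these genes carry much of the family's RNA. Coordinates are GRCh38. The stretch of *RAB1B* is chr11:66277433-66277462 on the plus strand, that of *RAB7A* chr3:128814046-128814075 on the plus strand, that of *RAB5C* chr17:42125540-42125569 on the minus strand, that of *RAB11B* chr19:8404232-8404261 on the plus strand and that of *RAB32* chr6:146554924-146554953 on the plus strand.
RAB1B: acaaaaaaaatTAATAAAtttccattggcc
RAB7A: atagtacatgtTAATATAtgcaaccaatta
RAB5C: agtcactttttTAATATAtatgatcttctg
RAB11B: ctccgtgttttGTATATAcaaccgctcttg
RAB32: tgctggggtggTAATAAAatgttacctcca

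The matches of *RAB1B* and *RAB32* contain AATAAA, the hexamer of the polyadenylation signal, which the element can overlap. The match of *RAB1B* starts at base 1206 of a 3′UTR of 1254 bases and that of *RAB32* at base 330 of 348. In 5 members, *RAB1B*, *RAB32*, *RAB35*, *RAB29* and *RAB15*, the only match held this hexamer. Of all 453 RAB matches, 157 (34.7%) held it, against 36.0% for all listed genes. In the study's own mapping of sites bound by RBMS3, this hexamer was the most significant motif. Matches that hold it can therefore not be taken as unbound. With such matches set aside, 36 of 52 RAB genes (69.2%) kept at least 1 match, against 62.4% of all listed genes with a 3′UTR.

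Lists made for this work gave the genes that are taken to act on RAB proteins. All 7 genes of prenylation and the membrane cycle were listed, 4 of them above the median of all listed genes. *GDI2*, which extracts RAB proteins from membranes and keeps them soluble, had a level of 2793 per kilobase. *RABGGTB*, the catalytic subunit of the enzyme that adds the lipid, had a level of 914 and *RABGGTA*, its other subunit, one of 236. *CHM* and *CHML*, the escort proteins that present RABs to that enzyme, stood at 92.6 and 136 per kilobase.

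All 17 GEF genes of the list were present and 11 lay above the median. *MADD*, which activates RAB3 and RAB27, was highest at 537 per kilobase, and *RAB3IP*, which activates RAB8, was lowest at 47.6. The GAP list took TBC1D genes by symbol, and activity on RAB proteins was not checked for each. Of its 50 genes, 38 were present and 16 lay above the median, from *TBC1D9B* at 658 to *SGSM1* at 4.11 per kilobase. Among the 12 genes of the GAP list without a row were 8 of the near-identical TBC1D3 copies. Of 21 effector genes, 19 were present and 9 lay above the median, from *RABEP1*, a partner of RAB5, at 353 to *SYTL3*, a partner of RAB27, at 13.7 per kilobase. The kinases *LRRK1* and *LRRK2*, which phosphorylate RAB proteins, had levels of 86.2 and 5.53 per kilobase.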

How the data were processed

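The series holds total RNA-seq of 6 libraries, and 1 table of the whole series was used here. For each gene the authors deposited a signal that averages normalized counts over pooled libraries of knockdown and control cells. The submitters' processing notes name Salmon, DESeq2 and hg38; the versions, annotation and filters used for this table are not given in the sources used here. The study's methods state versions of these tools and an annotation release for other assays only. The 5 other columns, a fold change, its error, a statistic and p-values of the authors' comparison, were not used, so no test and no call was made. The design foresaw a test only for values of single libraries.

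Gene models were those of GENCODE release 44 (GRCh38), in which 15829 of the 15917 Ensembl identifiers were found. The representative transcript was MANE Select, else Ensembl canonical, else the longest, and all 52 members had a MANE Select transcript. The mean normalized count was divided by its length in kilobases. Coding sequences were aligned with Biopython 1.88 over their whole length. Functions were tested on simulated data. Analyses used Python 3.11.15, SciPy 1.17.1 and matplotlib 3.10.9.

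Members and lists were chosen with earlier results of these data known. Genes named were to be the 10 highest and 5 lowest members, RABL genes, paralogs with the widest and narrowest gap, extremes of each role and class, and RBMS3; the text gives every member. Some results on other genes are not reported here. Proteins were not analysed here, and their planned comparison was replaced by that of coding bases.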

Additional observations from a re-analysis of the deposited data

How the results depend on the processing

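Over 3 results and 18 alternatives, 16 left the result in place by a wide rule. The rule asked for a share within the exact interval of the main value, 34.0% to 62.4%, or a count within 1.5 times of it. That interval covers counting of genes and not processing, so a result called in place can still have shifted. The share of RAB genes above the median of all listed genes, 48.1%, was 55.8% (29 of 52) without division by length, which the rule kept. It rose to 65.4% when the length of the coding sequence replaced that of the transcript. Beside protein-coding genes only, the share was 44.2% (23 of 52), which the rule also kept. Members in the highest 10% of genes, 8 with division by transcript length, were 5 without division by length and 11 with the coding length. Long 3′UTRs enter the transcript length and not the coding length. The number of highest members that hold at least 50% of the summed level, 7, ranged from 6 to 9. Leaving out the 6 members with at least 50% of shared windows, and using the longest transcript of each gene, were 6 of the 18 alternatives and were chosen after seeing the data. No paired analysis was possible because the value of each gene is pooled over libraries. Leaving out a replicate, another normalization and a filter could not be run on such a value. The table gives no depth, and no precision of a level can be stated.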

Other observations

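Other branches of the RAS superfamily were set beside the RAB genes on the same scale, the authors' mean normalized count per kilobase, with members taken by GENCODE symbol after the data were examined. The median RAB level was 120 per kilobase over 52 genes. It was 187 for 22 genes of the RAS branch and 159 for 25 of the ARF, ARL and SAR branch. The highest RAB gene, *RAB1B* at 2394, lay below *ARF1* (4694) and *RAN* (3525), the GTPase of nuclear transport, and above *HRAS* (2101). By the sum of levels over all listed members, the RAB branch came to 18757 and ARF, ARL and SAR to 13290. These are pooled values of genes of different number and function, and no difference between branches was tested.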
